A study of Mus musculus with 61 samples.

Results

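The experiment described here returned STAT5B to CD4+ T cells that lack both STAT5 proteins. Its members, chosen by the label of the vector, were 6 of the 61 RNA-seq libraries of the series, 3 from Stat5a/b-null CD4+ T cells transduced with the empty vector and 3 from null cells transduced with a vector for mouse STAT5B. The cells came from C57BL/6 mice of 2 months that carried floxed Stat5a/b alleles and Cd4-Cre, a transgene that acts in developing thymocytes and so deletes the locus in the CD4 and CD8 lineages alike. Naive CD4+ CD44low CD25- cells were sorted from pooled lymph nodes and spleens, activated through the T cell receptor and CD28, transduced with a retrovirus that also encodes GFP, kept with IL-2 and sorted again as live CD4+ GFP+ cells after 48 h. Controls and STAT5B cells therefore shared the deletion, the activation, the transduction and the cytokine, and differed in the STAT5B insert. The study calls its replicates biological and independent, but the sources used here do not say whether each was a separate mouse or culture. The p-values therefore measure only the spread between the libraries fitted, which include others of the series. Where WT cells are mentioned, they are CD4+ T cells with intact STAT5 in the same culture, 3 libraries with the empty vector and 3 with the STAT5B vector.

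STAT5A and STAT5B are latent transcription factors of the JAK-STAT pathway. IL-2, IL-4, IL-7, IL-9, IL-15 and IL-21 signal through receptors that share the common gamma chain, whose JAK1 and JAK3 kinases phosphorylate STAT5 and other STATs, and STAT5 dimers then bind DNA at sites of the form TTCNNNGAA, where N is any base. In T cells STAT5 is known for inducing the IL-2 receptor alpha chain and the SOCS family of feedback inhibitors, for its role in regulatory T cells, and for opposing BCL6 and the follicular helper program.

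The 6 libraries held 24437975 to 45211427 reads counted on genes. Levels are given as CPM, read counts scaled by library size, after TMM scaling over the 30 CD4+ T cell libraries, and are compared between libraries for the same gene. Cd4 was at 951 to 1184 CPM and Cd3e at 379 to 511 CPM in all 6, whereas Cd8a was below 0.42 CPM and Cd8b1 at 10.9 to 20.1 CPM. Thy1 was at 118 to 165 CPM with the empty vector and 205 to 350 CPM with STAT5B. Its log2 fold change was 0.88 (edgeR quasi-likelihood adjusted p = 0.0346). Cd3d, Cd3g and Lck had log2 fold changes of -0.39, -0.36 and -0.09, with adjusted p-values of at least 0.129 in that test. Summed markers of other cells were low in both groups, in CPM of the library total: 8 B cell genes at 4.22 to 5.52 with the empty vector and 3.98 to 4.43 with STAT5B, 10 macrophage and monocyte genes at 3.11 to 6.22 and 2.62 to 4.58 (C1qc at 0), 6 dendritic cell genes at 4.20 to 5.25 and 3.60 to 4.40, 7 mast cell and basophil genes at 8.58 to 13.0 and 5.62 to 8.72. The sums of 7 NK cell genes were 0.704 to 3.65 and 0.721 to 3.31 (Klra4 and Klra8 at 0), those of 8 neutrophil genes 0.135 to 0.410 and 0.107 to 0.420 (S100a8, S100a9 and Elane at 0), those of 7 erythroid genes 0.866 to 1.49 and 0.708 to 1.63 (the 4 globin genes at 0), and those of 3 gamma-delta and innate lymphoid genes 0.433 to 0.894 and 0.320 to 0.777. For the 2 CD8 genes the ranges were 15.6 to 20.04 with the empty vector and 11.3 to 13.3 with STAT5B. In such bulk samples fewer cells of a type and less RNA per cell cannot be told apart.

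Stat5b (chr11:100780731-100850724, minus strand, GRCm38) checks the labels. Its transcripts were at 2.78, 5.30 and 9.49 CPM in empty-vector replicates 1, 2 and 3, and at 355, 345 and 246 CPM with the STAT5B vector. In WT cells with the empty vector they ranged from 187 to 209 CPM, so that the STAT5B group had a mean of 157% of the WT level and all 3 of its libraries lay above all 3 WT libraries. The log2 fold change of STAT5B over the empty vector was 5.75 ± 0.36 (SE, n = 3 per group) with an adjusted p of 1.32e-07 by the Benjamini-Hochberg method after edgeR's quasi-likelihood test, and an exact two-sided permutation test of the means gave p = 0.1, the smallest that 3 against 3 allows. The counts do not separate reads of the vector from reads of the locus. Stat5a, which is deleted together with Stat5b and was not returned, was at 1.70, 3.13 and 6.66 CPM with the empty vector and 1.95, 2.43 and 5.39 CPM with STAT5B, against 137 to 172 CPM in WT cells. The libraries of both groups overlapped for Stat5a (exact permutation p = 0.7), and its mean with STAT5B was 2.06% of the WT level. In both groups replicate 3 held the highest Stat5a level, and among the empty-vector libraries replicate 3 also held the highest Stat5b level.

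Few genes were called as changed with STAT5B, and most of those called were higher. Of 20113 genes tested, 96 (0.477%) were differentially expressed genes (DEGs), which had to pass an adjusted p of 0.05 and move by more than 1 on the log2 scale. Of these, 72 (0.358%) were higher with STAT5B and 24 (0.119%) lower. Stat5b itself is among the former, which leaves 71, with a median log2 fold change of 2.07 and a range of 1.00 to 5.55, whereas the 24 lower DEGs ranged from -2.20 to -1.02 with a median of -1.26. All 3 STAT5B libraries lay above all 3 controls in each of the 71 and below them in 23 of the 24, and did so in 9.68% and 7.94% of all genes tested. When the replicate number was fitted as a block, 204 genes (1.01%) were DEGs, 130 higher (0.646%) and 74 lower (0.368%), and they included 70 of the 72 and all 24. Without the fold limit, 191 genes (0.95%) passed as higher and 114 (0.567%) as lower. The count was 51 without empty-vector replicate 1, 58 without empty-vector replicate 2, 55 without STAT5B replicate 1 and 53 without STAT5B replicate 2, but 152 without empty-vector replicate 3.

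**Figure D1:**
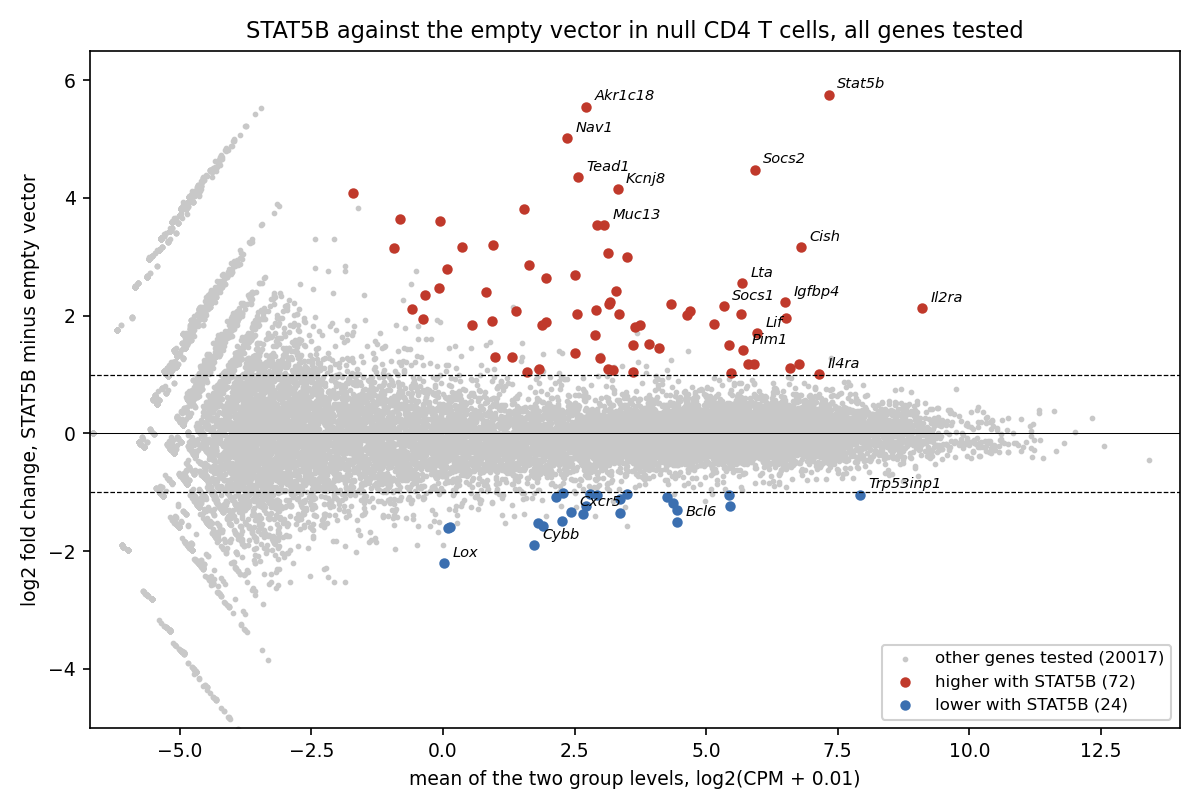
Each point is a gene tested, with the mean of both group levels on the x axis (log2 of CPM plus 0.01) and the log2 fold change of STAT5B over the empty vector on the y axis; dashed lines mark a log2 fold change of 1 and -1, and 2 genes lie outside the axes. The 72 red DEGs reach 5.75 (Stat5b) and spread over low and high levels, whereas the 24 blue DEGs end at -2.20 (Lox).

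Replicate 3 stood apart among the STAT5B libraries. It held the lowest of the 3 STAT5B values in 63 of the 71 higher DEGs, and empty-vector replicate 3 held the highest control value in 43 of them. STAT5B replicate 3 also had the lowest Stat5b level of its group, 246 CPM, and the smallest number of reads on genes. Without it, 116 genes were DEGs, 89 higher and 27 lower. The part that these differences between libraries have in the results was not tested.

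**Figure D2:**
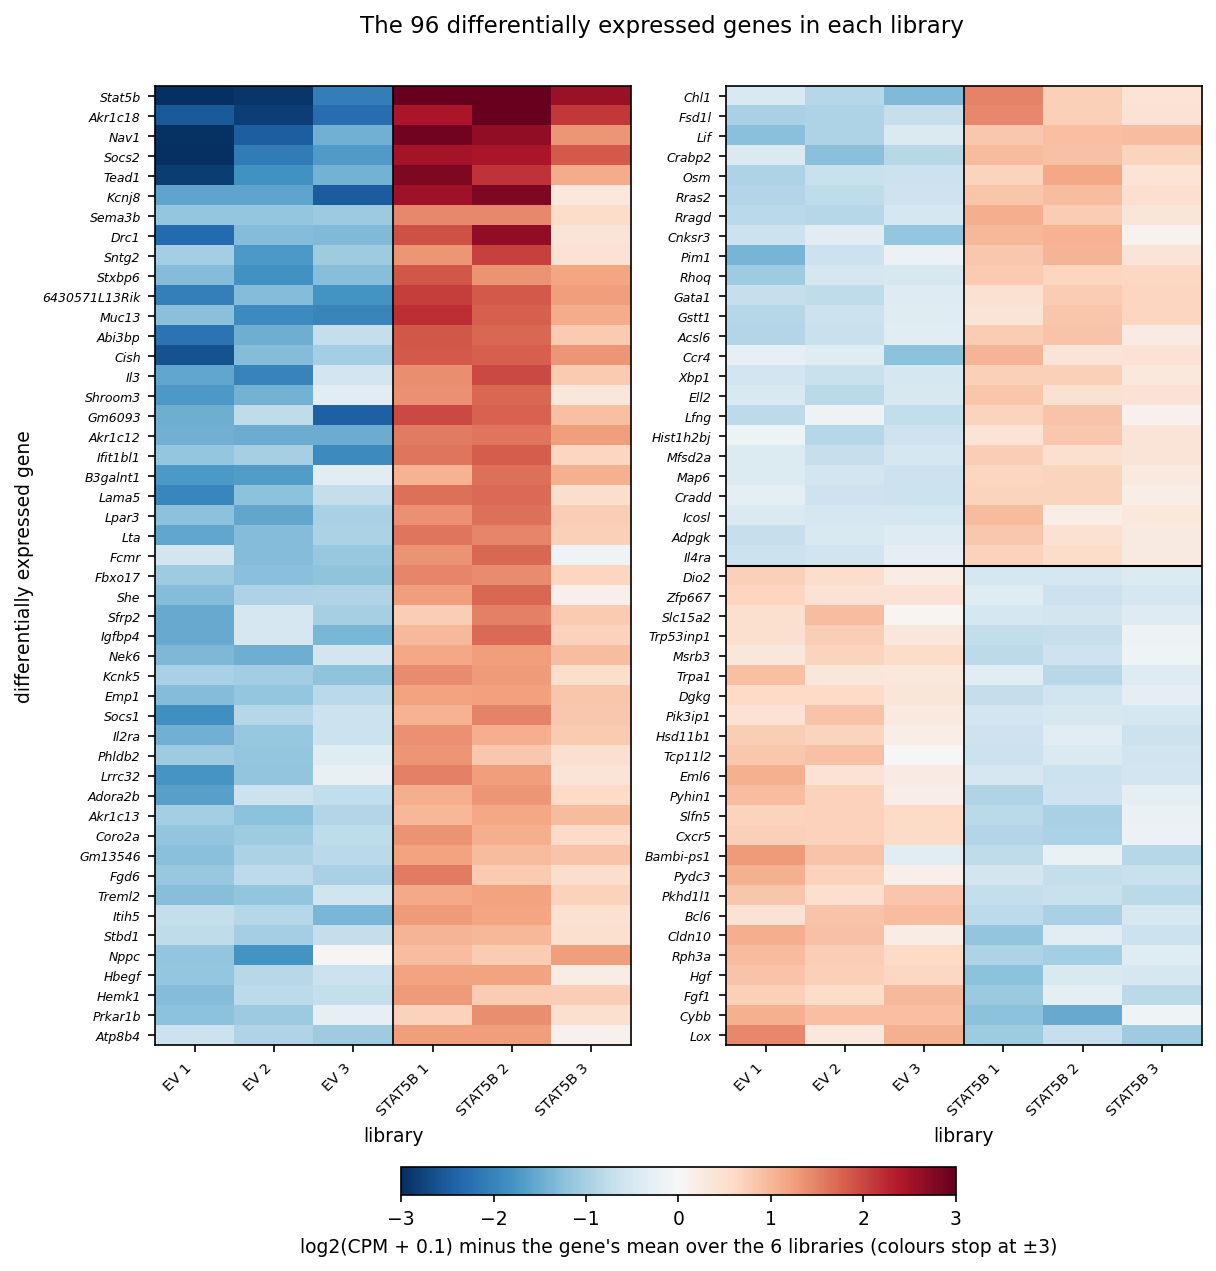
Rows are the 96 DEGs, ordered by log2 fold change with the 72 higher genes first and a line before the 24 lower ones, and columns are the 3 empty-vector (EV) and 3 STAT5B libraries; colour is log2 of CPM plus 0.1 minus the gene's mean over the 6 libraries. The STAT5B replicate 3 column is paler than replicates 1 and 2 for most of the higher genes.

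Feedback inhibitors of cytokine signalling were among the genes that rose. Of the 8 SOCS family genes, 3 were DEGs, all higher, against 0.358% of all genes, and the median log2 fold change of the family was 0.58, against 0.005 over all genes tested. Socs2 (chr10:95385362-95417180), which restrains growth hormone and other STAT5-coupled receptors, was at 2.86, 5.45 and 7.25 CPM with the empty vector and at 134, 129 and 84.1 CPM with STAT5B. Cish (chr9:107296026-107302784), a STAT5-induced inhibitor of IL-2 and T cell receptor signalling, was at 10.2, 25.6 and 31.1 CPM and at 226, 220 and 158 CPM. Socs1, which binds and blocks JAK kinases, was at 8.25, 16.5 and 19.3 CPM and at 62.2, 83.7 and 52.6 CPM. For all 3 genes every STAT5B library was above every empty-vector library, and the control values were lowest in replicate 1. In edgeR's quasi-likelihood test the log2 fold change was 4.48 ± 0.33 for Socs2 (SE, adjusted p = 3.59e-07), 3.17 ± 0.31 for Cish (adjusted p = 1.68e-05) and 2.16 ± 0.30 for Socs1 (adjusted p = 0.000705). All 3 were called without each library in turn. Socs3, the inhibitor of gp130-type receptors, was at 2.53, 6.09 and 9.15 CPM and at 11.6, 14.6 and 12.8 CPM, which do not overlap, but its log2 fold change of 1.13 ± 0.50 gave an adjusted p of 0.288; with the replicate block it was 1.27 (adjusted p = 0.0469). The remaining members Socs4, Socs5, Socs6 and Socs7 had log2 fold changes between -0.39 and 0.03 and passed in neither direction.

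**Figure D3:**
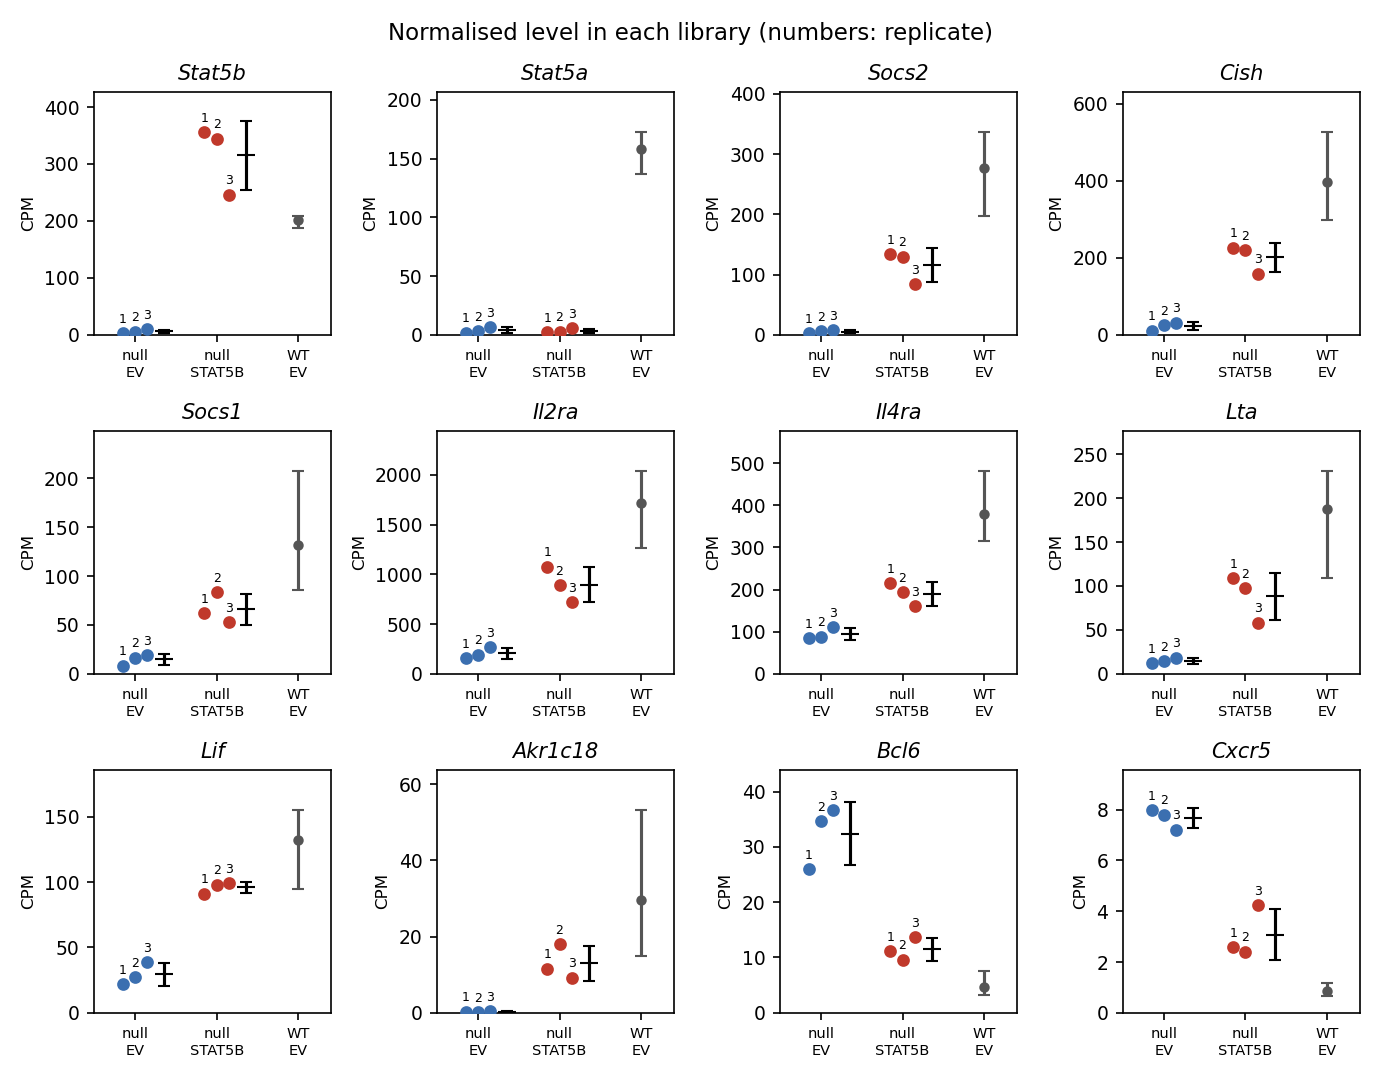
Each panel plots the level of a gene in CPM on an axis from 0; blue points are the 3 empty-vector (EV) and red points the 3 STAT5B libraries of null cells, numbered by replicate, black bars are the mean ± SD, and grey bars span the lowest to the highest of 3 WT empty-vector libraries around their mean. Stat5b with STAT5B exceeds the WT range, Stat5a stays near 0, Socs2, Cish, Il2ra, Il4ra and Lta lie between null and WT cells, and Bcl6 and Cxcr5 fall toward the WT range without reaching it.

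Among the receptors that use the common gamma chain, 2 of 8 were DEGs, both higher, against 0.358% of all genes. Il2ra (chr2:11642807-11693193), the alpha chain that gives the IL-2 receptor its high affinity, was at 154, 191 and 268 CPM with the empty vector and at 1076, 890 and 719 CPM with STAT5B. Every STAT5B library exceeded every control, with a log2 fold change of 2.12 ± 0.22 (SE, edgeR quasi-likelihood adjusted p = 2.52e-05), and the call held without each library in turn. Il4ra, the IL-4 receptor alpha chain, was at 84.5, 87.9 and 110 CPM and at 216, 193 and 160 CPM, without overlap, and its log2 fold change of 1.00 ± 0.17 sat at the fold limit (adjusted p = 0.00607). Its call was lost in 11 of 13 alternatives, which left Il2ra as the DEG of this list. The change was 0.971 to 0.999 with the replicate block, RLE normalization factors, DESeq2, filterByExpr, no filter on low counts, the 6 libraries alone or 1 RUVr factor, under the fold limit, and without replicate 1 or 2 of either group it was as low as 0.89, with adjusted p-values of up to 0.0653. The shared signalling chains did not pass. Il2rb, the beta chain, was at 215, 265 and 236 CPM and at 352, 395 and 268 CPM, with a log2 fold change of 0.49 (adjusted p = 0.163; 0.0269 with the replicate block). Il2rg, the gamma chain itself, had a log2 fold change of -0.13 (adjusted p = 0.613). For Il7r, Il9r, Il15ra and Il21r the change was 0.19, -0.12, -0.09 and -0.22, and none passed. Of the 24 other cytokine receptor genes tested, none was a DEG in edgeR or DESeq2, and 5 had an unadjusted p under 0.05, as did 2973 of the 20113 genes tested (14.8%). Il6st, the gp130 chain of the IL-6 receptor family, had a log2 fold change of -0.77 with an adjusted p of 0.0194, below the fold limit.

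The kinases and other STATs of the pathway did not pass both limits for a DEG. Apart from Stat5b, none of the 10 other JAK and STAT genes was a DEG in edgeR or DESeq2, 3 had an unadjusted p under 0.05 (14.8% of all genes did), and 8 of the 11 had a negative log2 fold change. Stat4, which transduces IL-12, was at 152, 151 and 132 CPM with the empty vector and at 94.2, 98.2 and 114 CPM with STAT5B, which do not overlap, and its log2 fold change was -0.51 (edgeR adjusted p = 0.0838). The log2 fold change was -0.33 for Jak1, -0.29 for Jak2, 0.15 for Jak3, -0.02 for Tyk2, -0.05 for Stat2, -0.30 for Stat3 and 0.04 for Stat6, and the adjusted p of each was at least 0.155. With the replicate block the edgeR adjusted p was 0.00877 for Stat4, 0.0331 for Jak1 and 0.0441 for Stat3. Their blocked log2 fold changes were -0.52, -0.33 and -0.28, below the fold limit. For Jak2, Jak3, Tyk2, Stat2 and Stat6 the blocked adjusted p was at least 0.054.

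Genes for secreted cytokines gave 5 DEGs of 26 tested, all 5 higher, against 0.358% of all genes. With the replicate block 7 of the 26 were higher, against 0.646% of all genes. Lta (chr17:35203165-35205351), lymphotoxin alpha, was at 12.01, 14.3 and 18.4 CPM with the empty vector and at 109, 97.7 and 58.0 CPM with STAT5B, a log2 fold change of 2.56 ± 0.33 (SE, edgeR adjusted p = 0.00042). Its neighbour Tnf was at 10.1, 10.6 and 16.8 CPM and at 19.2, 21.7 and 23.4 CPM, with a log2 fold change of 0.77 (adjusted p = 0.0221), below the fold limit. Lif, a cytokine that signals through gp130, was at 21.99, 27.4 and 38.7 CPM and at 91.3, 98.0 and 99.3 CPM, and was 1 of 2 higher DEGs in which STAT5B replicate 3 was the highest of its group (log2 fold change 1.70 ± 0.16, adjusted p = 7.29e-06). Osm, the related oncostatin M, was at 6.79, 8.20 and 8.35 CPM and at 20.7, 29.3 and 17.4 CPM (log2 fold change 1.52 ± 0.20, adjusted p = 0.000435). No library of either group crossed over for Lta, Lif or Osm, and all 3 calls held without each library in turn. The 2 remaining DEGs were low. Il3, a growth factor for early blood cells, was at 0.192, 0.116 and 0.483 CPM and at 2.18, 3.33 and 1.39 CPM (log2 fold change 3.16 ± 0.73, adjusted p = 0.0384), and lost its call without replicate 1 or 2 of either group, with adjusted p-values of up to 0.173. Hbegf, a ligand of the EGF receptor, was at 1.32, 1.68 and 1.93 CPM and at 7.31, 7.28 and 3.61 CPM (log2 fold change 1.89 ± 0.33, adjusted p = 0.00677), and lost its call without empty-vector replicate 1 (adjusted p = 0.0653). Csf2, for GM-CSF, had a log2 fold change of 1.30 with an adjusted p of 0.0559 (0.00694 with the replicate block), and Il13, a type 2 cytokine at 0.891 CPM or less in each library, one of 3.84 with an adjusted p of 0.0726 (0.019 with the block).

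The gene with the largest change after Stat5b was Akr1c18 (chr13:4132615-4150654), the hydroxysteroid dehydrogenase that inactivates progesterone. It was at 0.275, 0.203 and 0.345 CPM with the empty vector and at 11.6, 17.998 and 9.24 CPM with STAT5B, a log2 fold change of 5.55 ± 0.51 (SE, edgeR adjusted p = 7.29e-06). Akr1c12 was at 2.56, 2.46 and 2.45 CPM and at 21.1, 21.9 and 17.2 CPM, and Akr1c13 at 10.03, 8.61 and 11.05 CPM and at 40.7, 45.6 and 39.4 CPM. These changes, 3.002 ± 0.22 (adjusted p = 3.59e-07) and 2.07 ± 0.14 (adjusted p = 1.86e-07), had smaller standard errors than those of Socs2, Cish and Socs1, and all 3 Akr1c calls held without each library in turn. They are related aldo-keto reductases encoded side by side on chromosome 13. How the counting treated reads that fit several copies is not given in the sources used here, so the levels of these genes are uncertain to that extent. The other members of the cluster tested passed in neither direction: Akr1c14, Akr1c19 and Akr1c21 had no library above 0.16 CPM, and Akr1e1 had a log2 fold change of 0.11.

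Most of the remaining leading genes have roles outside cytokine signalling. Nav1, a microtubule-associated protein first known from neurons, was at 0.137, 0.232 and 0.587 CPM with the empty vector and at 13.7, 11.5 and 4.52 CPM with STAT5B (log2 fold change 5.01, edgeR adjusted p = 7.77e-05). Tead1, a DNA-binding partner of the YAP coactivator, was at 0.247, 0.609 and 0.828 CPM and at 17.3, 11.1 and 5.27 CPM (log2 fold change 4.35, adjusted p = 0.000587). Kcnj8, a pore subunit of ATP-sensitive potassium channels, was at 1.26, 1.25 and 0.621 CPM and at 23.6, 28.0 and 4.96 CPM (log2 fold change 4.15, adjusted p = 0.0033). In all 3, STAT5B replicate 3 was the lowest of its group, and the call held without each library in turn. The groups did not overlap for these genes, which was a condition of the rule that named the largest rises. Muc13, a membrane mucin, had a log2 fold change of 3.53, Drc1, a subunit of the dynein regulatory complex of cilia, one of 3.81, and Abi3bp, an extracellular matrix protein, one of 3.19, with adjusted p-values of 0.00677, 0.00656 and 0.00686. Drc1 and Abi3bp lost their calls without empty-vector replicate 1 (adjusted p = 0.0649 and 0.0654) and Muc13 without empty-vector replicate 2 (0.0511). The log2 fold change was 3.54 for 6430571L13Rik, 3.07 for Gm6093 and 2.87 for Ifit1bl1, a relative of the interferon-induced Ifit1, whose adjusted p-values were 2.32e-06, 0.0192 and 0.00247. The call of Gm6093 was lost without empty-vector replicate 1 or STAT5B replicate 1 or 2, with adjusted p-values of up to 0.103. Gm6093 and Ifit1bl1 have close relatives in the genome, so that the assignment of their reads is uncertain.

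Some of the higher DEGs were neighbours in the genome. Of 94 DEGs with a position in GENCODE M21, 14 lay within 100 kb of another DEG, in 9 pairs, and all 14 were higher with STAT5B; how many such pairs other sets of genes have was not examined. Cish, Hemk1 and 6430571L13Rik form a group on chromosome 9 in this order, with gaps of 24.3 kb and 2.3 kb. Hemk1, a methyltransferase of translation release factors, was at 11.7, 16.7 and 17.5 CPM with the empty vector and at 70.4, 48.6 and 48.2 CPM with STAT5B (log2 fold change 1.86, edgeR adjusted p = 8.78e-05). Osm and Lif are 16.5 kb apart on chromosome 11, where Il3 and Acsl6, a fatty acid activating enzyme (log2 fold change 1.29, adjusted p = 0.0491), are 36.5 kb apart. Socs2 lies 61.2 kb from Cradd, a death-domain adaptor (log2 fold change 1.04, adjusted p = 0.0199), on chromosome 10, and Akr1c18, Akr1c13 and Akr1c12 follow each other on chromosome 13 with gaps of 40.5 kb and 62.6 kb. The last pair was Shroom3 and Stbd1, 76.9 kb apart on chromosome 5. Hemk1, Acsl6, Cradd, Shroom3 and Stbd1 were picked for their position after the values were seen.

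The promoters of the DEGs were searched for TTCNNNGAA, which reads the same on both strands, in windows of 300 bases from 250 before to 50 after each start in the RefSeq promoter table for GRCm38. A window was at hand for 61 of the 72 higher and 15 of the 24 lower DEGs. A copy was present in 6 of the 61 (9.8%) and 1 of the 15 (6.7%), against 8.9% of the 14835 tested genes with a window. At least 2 copies in a window were found for Cish, Emp1 and Lta among the higher DEGs, 3 of 61, and for Bcl6 among the lower, 1 of 15, against 0.52% of the tested genes. These stretches are shown because they hold such repeats, with the motif in capitals and each read 5′ to 3′ on the strand of its gene. The Cish stretch lies in an annotated UTR after an internal start, at chr9:107296654-107296683 on the plus strand. Those of Emp1, on the plus strand, are chr6:135362803-135362827, outside exons, and chr6:135362901-135362925, within an annotated UTR. The Lta stretches, on the minus strand, are chr17:35205487-35205511, outside exons, and chr17:35205351-35205375, which touches an exon. That of Bcl6, chr16:23981355-23981459 on the minus strand, lies inside the gene before an internal start, overlaps no exon and holds 3 copies. A match is a description of the letters and does not show binding.
Cish: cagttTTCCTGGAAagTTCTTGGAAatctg
Emp1, first: caacagggTTCTTTGAAttgatggc
Emp1, second: cagactgaTTCATAGAAactccttt
Lta, first: catcactcTTCAGGGAAccaggctt
Lta, second: gactccctTTCCCAGAAcgcagtag
Bcl6: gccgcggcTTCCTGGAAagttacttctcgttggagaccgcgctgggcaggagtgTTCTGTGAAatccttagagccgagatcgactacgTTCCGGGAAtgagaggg

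Bcl6 (chr16:23965052-23988852), the repressor that directs follicular helper differentiation, fell with STAT5B. It was at 25.9, 34.7 and 36.6 CPM with the empty vector and at 11.1, 9.63 and 13.6 CPM with STAT5B, without overlap, a log2 fold change of -1.51 ± 0.21 (SE, edgeR adjusted p = 0.000726). Cxcr5, the chemokine receptor that brings follicular helper cells to B cell follicles, was at 7.97, 7.80 and 7.21 CPM and at 2.58, 2.41 and 4.24 CPM (log2 fold change -1.34 ± 0.21, adjusted p = 0.0033). Both groups of libraries stayed apart for each gene, and both calls held without each library in turn. Of the 14 follicular helper genes, these 2 were DEGs, against 0.119% of all genes for lower DEGs, and the median log2 fold change was -0.44. Tox2, a factor of the same program, had a log2 fold change of -1.41 (adjusted p = 0.149; 0.00233 with the replicate block), and Maf, from the list of lineage transcription factors, one of -1.25 (adjusted p = 0.22; 3.31e-05 with the block). Sh2d1a, the adaptor SAP, went the other way with a log2 fold change of 0.55 (adjusted p = 0.0199), below the fold limit.

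Among the other lower DEGs with a mean of at least 1 CPM and no overlap between the groups, the largest changes were those of Lox, Cybb, Fgf1, Hgf, Rph3a, Cldn10, Pkhd1l1, Pydc3, Slfn5 and Pyhin1, with log2 fold changes from -2.20 to -1.23. Lox, a collagen cross-linking oxidase, was at 2.25, 0.985 and 1.73 CPM with the empty vector and at 0.315, 0.435 and 0.317 CPM with STAT5B, and Cybb, the catalytic subunit of the phagocyte NADPH oxidase, at 5.55, 4.96 and 4.97 CPM and at 1.05, 0.848 and 2.38 CPM. The growth factors Fgf1 and Hgf had no library above 1.87 CPM. Pyhin1, a DNA sensor of the interferon-inducible HIN family, was at 74.9, 64.1 and 45.1 CPM and at 21.1, 25.7 and 32.2 CPM (log2 fold change -1.23 ± 0.20, edgeR adjusted p = 0.00371). Slfn5, a Schlafen protein, was at 31.0, 31.7 and 29.4 CPM and at 11.1, 9.91 and 16.9 CPM (-1.29 ± 0.30, adjusted p = 0.0379). All 10 were also lower DEGs with the replicate block, but 8 of the calls were lost without 1 or more of the libraries, although the log2 fold changes of these 8 stayed between -2.46 (Lox) and -1.18 (Slfn5). Fgf1 lost its call whichever library was left out (adjusted p of 0.0678 to 0.209). Cybb, Hgf, Rph3a and Slfn5 lost theirs without replicate 1 or 2 of either group, with adjusted p-values of up to 0.206, 0.176, 0.148 and 0.185, Lox without empty-vector replicate 1 or any STAT5B library (up to 0.164), and Pkhd1l1 and Cldn10 without replicate 1 of either group (up to 0.0677 and 0.0648), Pkhd1l1 also without STAT5B replicate 2. The summed macrophage and monocyte markers were 3.11 to 6.22 CPM with the empty vector and 2.62 to 4.58 CPM with STAT5B; their part in the lower Cybb was not tested. Pydc3 has near-identical relatives, so that its reads are uncertain.

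Of 19 regulatory T cell genes tested, 2 were DEGs, both higher, against 0.358% of all genes, and the median log2 fold change was 0.35. The block gave 4 higher genes of the 19, against 0.646% of all genes. The 2 DEGs without the block were Il2ra and Lrrc32, the latter encoding GARP, which holds latent TGF-beta on the cell surface. Lrrc32 was at 1.54, 2.38 and 4.69 CPM with the empty vector and at 15.9, 13.3 and 7.18 CPM with STAT5B (log2 fold change 2.09 ± 0.40, edgeR adjusted p = 0.0141), and its call was lost without replicate 1 or 2 of either group (adjusted p of up to 0.0961). Foxp3, the defining factor of the lineage, was at 3.41, 10.8 and 3.18 CPM and at 11.3, 14.3 and 8.84 CPM, which overlap, with a log2 fold change of 0.97 ± 0.48 (adjusted p = 0.357); with the replicate block it was 1.11 (adjusted p = 0.0315) and passed. Ikzf4, a partner of FOXP3, had a log2 fold change of 1.08 (adjusted p = 0.069; 0.00385 with the block). Tnfrsf18, encoding GITR, was at 273, 278 and 382 CPM and at 527, 548 and 501 CPM, a log2 fold change of 0.75 with an adjusted p of 0.00677, below the fold limit.

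Among the genes of survival and growth, Pim1, a serine/threonine kinase induced by cytokines, was a DEG. It was at 16.9, 28.5 and 39.3 CPM with the empty vector and at 78.2, 90.6 and 58.7 CPM with STAT5B (log2 fold change 1.42 ± 0.31, edgeR adjusted p = 0.028), and its call was lost without replicate 1 or 2 of either group (adjusted p of up to 0.156). Several others passed the limit on the adjusted p with less than the required fold. Bcl2, which blocks mitochondrial apoptosis, was at 155, 157 and 130 CPM and at 275, 266 and 224 CPM (log2 fold change 0.78 ± 0.14, adjusted p = 0.00722). Myc, the growth regulator, was at 76.9, 86.3 and 133 CPM and at 173, 163 and 170 CPM (0.76 ± 0.18, adjusted p = 0.0434). Slc7a5, the leucine transporter, was at 60.9, 83.0 and 105 CPM and at 168, 161 and 122 CPM (0.85 ± 0.20, adjusted p = 0.0377). For these 3 genes too, every STAT5B library was above every control, and without single libraries the log2 fold changes were 0.69 to 0.87, 0.60 to 1.03 and 0.66 to 1.04. The adjusted p of Bcl2 rose above 0.05 without STAT5B replicate 1 (0.0593), that of Slc7a5 without replicate 1 or 2 of either group (up to 0.186), and that of Myc without any library but empty-vector replicate 3 (up to 0.202). Slc3a2, the partner chain of Slc7a5, had a log2 fold change of 0.08 (adjusted p = 0.833), Ccnd2, cyclin D2, one of 0.39 (adjusted p = 0.0572), and Irf8, a factor of myeloid and lymphoid cells, one of 0.30 (adjusted p = 0.822).

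Genes of cell division and lipid synthesis had small positive log2 fold changes. All 28 cell cycle genes had a positive log2 fold change, between 0.01 and 0.64 with a median of 0.29, against a median of 0.005 over all genes. None was a DEG in edgeR or DESeq2, 13 had an unadjusted p under 0.05, against 14.8% of all genes, and 3, Ccne1, Aurkb and Birc5, had an adjusted p under 0.05 in edgeR's quasi-likelihood test, at log2 fold changes of 0.64, 0.51 and 0.39. In 12 of the 28 the STAT5B libraries lay above all controls, as in 9.68% of all genes tested. All 26 cholesterol and fatty acid synthesis genes were also on the positive side, with a median of 0.32 and 8 of 26 without overlap; none was a DEG in edgeR or DESeq2, and 13 had an unadjusted p under 0.05, against the same 14.8%. Scd1, the stearoyl-CoA desaturase, had the largest change among them, 1.33 (adjusted p = 0.187; 0.0157 with the replicate block). Members of such a list are regulated together and are not independent observations. Igfbp4, a binding protein of insulin-like growth factors that naive T cells express, was the single DEG of 19 naive and quiescence genes, against 0.358% of all genes for higher DEGs. It was at 23.0, 46.3 and 25.5 CPM with the empty vector and 129, 214 and 107 CPM with STAT5B (log2 fold change 2.23 ± 0.32, adjusted p = 0.00125). Of these 19 genes, 15 had a negative log2 fold change, and the median of the list was -0.31.

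**Figure D4:**
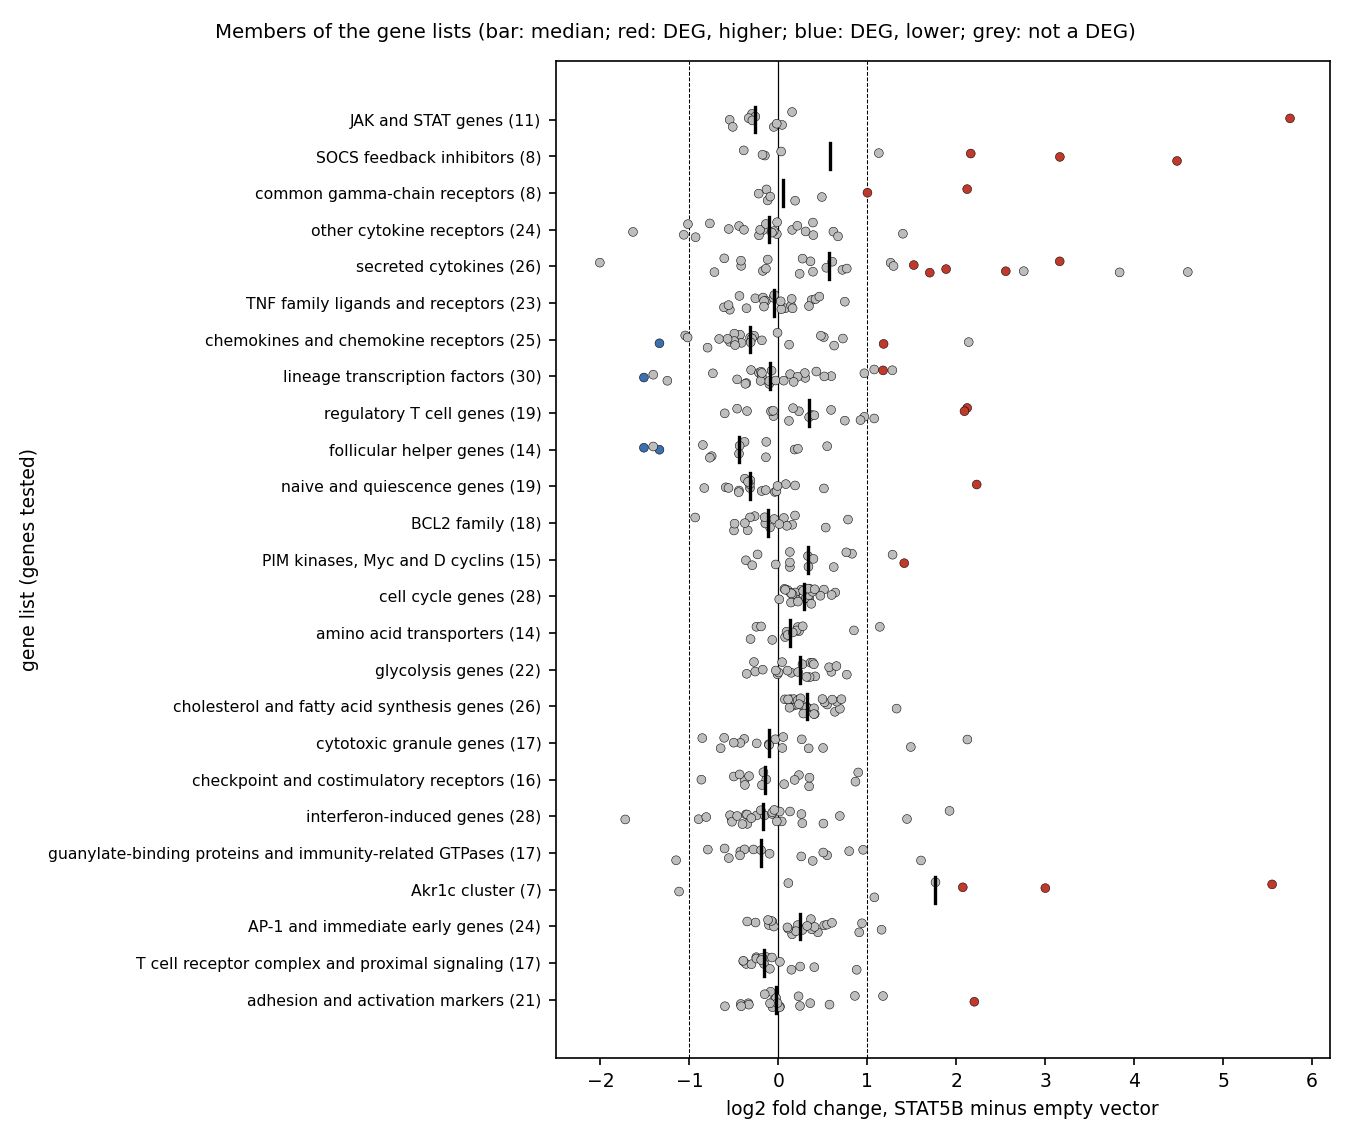
Each point is a gene of a list, placed by its log2 fold change of STAT5B over the empty vector, with the number of genes tested beside the name of the list; bars mark the medians, dashed lines a log2 fold change of 1 and -1, red points DEGs that were higher and blue points DEGs that were lower. The SOCS, cytokine and Akr1c lists hold 3, 5 and 3 red points, and the cell cycle and lipid synthesis lists lie wholly to the right of 0 without a DEG.

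The remaining lists held few or no DEGs. Among all genes tested, 0.358% were higher DEGs and 0.119% lower ones. Of 25 chemokines and chemokine receptors, Ccr4, the receptor for CCL17 and CCL22, was higher (log2 fold change 1.18 ± 0.24, edgeR adjusted p = 0.0178), a call lost without empty-vector replicate 3 (0.92, under the fold limit) and without STAT5B replicate 1 (adjusted p = 0.121), and Cxcr5 was lower. With the replicate block Ccl1, a CCR8 ligand, joined the higher genes (log2 fold change 2.17, adjusted p = 0.00343) and Cxcr6 the lower ones (-1.05, adjusted p = 0.0165). Of 30 lineage transcription factors, Xbp1, the factor of the unfolded protein response, was higher, at 66.6, 62.5 and 68.9 CPM with the empty vector and 163, 164 and 124 CPM with STAT5B (log2 fold change 1.18 ± 0.17, adjusted p = 0.00102), and Bcl6 was lower. Of the 30, 4 were higher and 3 lower with the replicate block, against 0.646% and 0.368% of all genes. Notch2, a receptor of the Notch pathway in the same list, had a log2 fold change of 1.28 (adjusted p = 0.053; 0.00173 with the block). Of 21 adhesion and activation markers, Emp1, a small membrane protein, was the DEG (log2 fold change 2.20 ± 0.32, adjusted p = 0.00132). The lists of TNF family genes (23), BCL2 family genes (18), amino acid transporters (14), glycolysis genes (22), cytotoxic granule genes (17), checkpoint and costimulatory receptors (16), interferon-induced genes (28), guanylate-binding proteins and immunity-related GTPases (17), AP-1 and immediate early genes (24) and T cell receptor components (17) held no DEG in edgeR, 2 in DESeq2, and 46 of their 196 members had an unadjusted p under 0.05, against 14.8% of all genes. With the replicate block, Ifit3 (log2 fold change 1.44), Gbp5 (1.00) and Gbp11 (1.62) of these lists were higher and Gbp10 (-1.26) was lower. None of the 9 marker lists of other cells held a DEG in edgeR or DESeq2, with 4 of 49 genes at an unadjusted p under 0.05, against the same 14.8%.

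Against WT cells with the empty vector, the higher DEGs mostly remained below. Leaving out Stat5b, all 3 STAT5B libraries were below all 3 WT libraries for 46 of 71 genes, overlapped them for 24 and were above them for 1, Nppc, and the median level was 48.7% of the WT mean. Cish was at 50.8% of its WT mean, Socs1 at 50.1%, Il2ra at 52.0%, Socs2 at 41.8%, Pim1 at 27.2% and Nav1 at 19.2%, while Akr1c13 was at 98.9%. Of the 24 lower DEGs, 18 were above all 3 WT libraries and 6 overlapped them, with a median of 191% of the WT mean; Bcl6 was at 244%. These shares describe DEGs chosen by their change in the null cells, and no test was run on them. How often all genes tested lie apart from the WT libraries in this way was not examined.

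The response was set against the response to the same vector in WT cells, which have STAT5 of their own and share no library with the null cells. In WT cells Stat5b had a log2 fold change of 1.30 (edgeR adjusted p = 0.117), and 2 of 21975 genes (0.0091%) were called, H19 and Myh11 (named after the values were seen), with 615 at an unadjusted p under 0.05. The difference of the responses was called for 22 genes (0.1%), of which 21 responded more positively in null cells and 1, Bcl6, more negatively. Of these 22, 20 were DEGs in the null cells, against 0.477% of all genes tested there. The difference contains the null-cell comparison of the same libraries, so this overlap is largely built in and is not separate evidence. With the replicate block 114 genes were called. Socs2 went from 5.19 to 116 CPM in null cells and from 278 to 349 CPM in WT cells, a difference of 4.16 ± 0.41 on the log2 scale (adjusted p = 1.01e-06). Cish went from 22.3 to 201 CPM and from 396 to 410 CPM (difference 3.13 ± 0.40, adjusted p = 9.60e-05), and Il2ra from 204 to 895 CPM and from 1721 to 1914 CPM (difference 1.98 ± 0.32, adjusted p = 0.00294). Their WT responses were small beside those of null cells, and for 16 of the 21 genes other than Stat5b the WT log2 fold change was within 0.5 of 0. The share of all genes tested within 0.5 of 0 in WT cells was not examined. The 21 were chosen by a difference that includes the WT response, so the count does not set them apart from other genes. Bcl6 went from 32.4 to 11.5 CPM in null cells and from 4.70 to 7.27 CPM in WT cells, a difference of -2.12 ± 0.42 (adjusted p = 0.0271). Igfbp4 went from 31.6 to 150 CPM and from 482 to 230 CPM (difference 3.31 ± 0.47, adjusted p = 0.000369). Within WT cells neither gene passed: the log2 fold change was 0.62 for Bcl6 and -1.07 for Igfbp4 (edgeR adjusted p = 0.982 for Igfbp4). The call of Bcl6 was lost in 9 of 17 alternatives, with adjusted p-values of up to 0.149, among them leaving out empty-vector replicate 2 or 3, STAT5B replicate 1 or 2, WT empty-vector replicate 1 or 2 and WT STAT5B replicate 2 or 3; those of Socs2, Cish, Il2ra and Igfbp4 held in all 17. Without single libraries the number of genes called ranged from 12, without WT empty-vector replicate 2, to 33, without WT empty-vector replicate 3, and was 14 without empty-vector replicate 2 or STAT5B replicate 2.

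**Figure D5:**
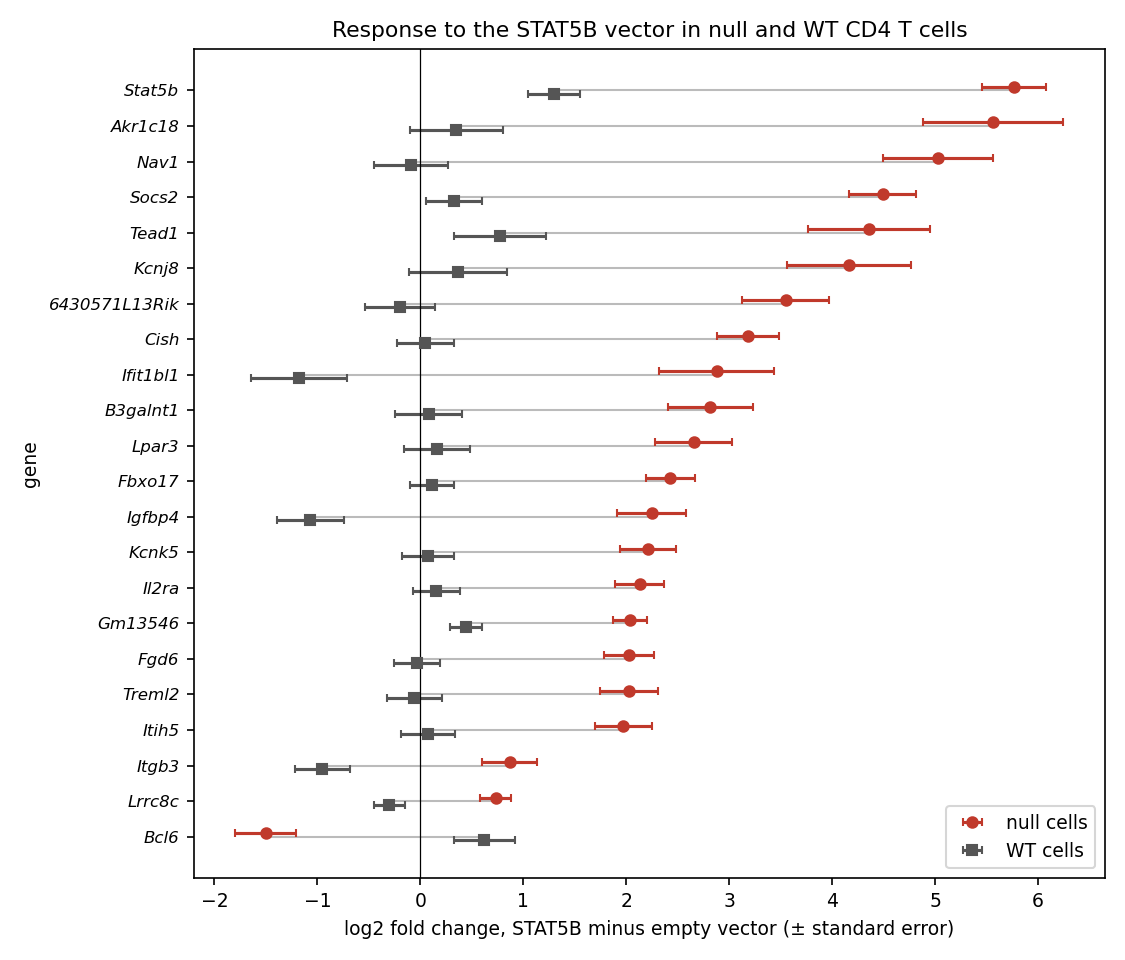
For the 22 genes whose response differed between backgrounds, red circles give the log2 fold change of STAT5B over the empty vector in null cells and grey squares that in WT cells, each ± SE and from 3 libraries per group. The red circles lie to the right for 21 genes, up to 5.76 for Stat5b, and to the left for Bcl6, at -1.50, whereas the grey squares lie between -1.18 and 1.30.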

How the data were processed

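Total RNA of 61 mouse libraries was sequenced after removal of ribosomal RNA, and the 30 CD4+ T cell libraries were used here. The authors trimmed the paired-end reads with Trimmomatic 0.36, aligned them to mm10 with STAR and counted them per gene with HTSeq 0.9.1; the deposited values are counts, without normalization. The strand setting and annotation of the counting are not given in the sources used here, so that overlapping and antisense genes cannot be told apart. Each file held 24421 genes and, in 5 closing lines, the reads not assigned to a gene, 30.1% to 34.2% of counted reads in the 6 libraries compared, which were left out. At the lowest depth 1 CPM is about 24.4 reads.

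Background and vector were taken from the labels; the genotype entry names floxed Stat5a/b in WT libraries too, so that the background followed the titles. The fit was edgeR 4.0.16 (R 4.3.3), glmQLFit with TMM factors over the 15 null libraries, 5 vectors as groups, on genes with at least 10 reads, and DEGs were genes that passed 0.05 after Benjamini-Hochberg adjustment and moved by more than 1 on the log2 scale. The other 3 vectors, STAT5B mutants, entered the filter on reads, the scaling and the estimate of the spread, but not the contrast. With the 6 libraries alone 16859 genes were tested and 103 were DEGs. SE was derived from the F statistic, as the absolute log2 fold change over its square root. Differences between backgrounds came from an interaction contrast over all 30 libraries. Coordinates are those of GENCODE M21. On simulated data with 100 genes changed by 1.5 on the log2 scale, the fit of 19735 genes called 98% of them. The interaction fit of 21704 genes called 65%, and of 100 changed by 3 both called 100%. In the simulation only genes with many reads changed, every gene had the same dispersion, and replicates had no effect of their own. These shares are thus not the sensitivity for low genes or for libraries that differ as these do.

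The members and gene lists were chosen with earlier results of these data known. Genes are named by rule: all JAK, STAT, SOCS and gamma-chain receptor genes; Pim1, Osm, Lta, Bcl2, Bcl6, Myc, Ccnd2, Foxp3, Irf8, Xbp1, Slc3a2 and Slc7a5; the 15 largest rises and 12 largest falls among DEGs with a mean of at least 1 CPM and no overlap; list members that were DEGs with or without the block; and up to 4 leading genes per direction of the interaction. Genes named beyond it, such as Tnf, Tnfrsf18, Il6st, Sh2d1a, Nppc and the 3 cell cycle genes, were picked after their values were seen. A member of the JAK and STAT list is not reported here by name.

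Replicate numbers paired the libraries: deviations from the group means correlated at 0.218, 0.318 and 0.421 over 11396 genes for empty-vector and STAT5B libraries of the same number, against at most 0.038 for other numbers, and all 30 same-number pairs of the null cells exceeded 0.1. Because the deviations within a group cancel out, positive same-number values push those of other numbers down, so the lower values are not separate evidence. The pairing comes from the data. Blocked values are given where they change a call in the null-cell comparison or move a count by over 1.5 times.

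Alternatives were RLE factors, DESeq2 1.42.0, filterByExpr, no filter, the groups compared alone, the replicate block, 1 factor from residuals in the manner of RUVr, no fold minimum, and leaving out each library.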

Additional observations from a re-analysis of the deposited data

Results flagged for a closer look

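The response to STAT5B differed between null and WT cells, by the test of the difference itself, for the 22 genes plotted beside the comparison of backgrounds. As differences of log2 fold changes, null minus WT, the values were 4.46 for Stat5b, 4.16 for Socs2, 3.13 for Cish, 5.12 for Nav1, 2.31 for Fbxo17, 3.31 for Igfbp4, 1.59 for Gm13546, 3.75 for 6430571L13Rik, 2.06 for Fgd6, 5.22 for Akr1c18, 1.98 for Il2ra and 2.14 for Kcnk5. These 12 held their calls in all 17 alternatives run. The other 10 lost theirs in at least 1 alternative: 4.06 for Ifit1bl1, 2.08 for Treml2, 2.73 for B3galnt1, 2.496 for Lpar3, -2.12 for Bcl6, 1.902 for Itih5, 3.79 for Kcnj8, 1.03 for Lrrc8c, 3.59 for Tead1 and 1.82 for Itgb3. Lrrc8c and Itgb3 were not DEGs in the null cells. For Stat5b, the difference includes the Stat5b transcripts that WT cells make themselves, at 201 CPM with the empty vector.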

How the results depend on the processing

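The 96 DEGs (72 higher, 24 lower) became 167 (116 and 51) in DESeq2, 204 (130 and 74) with the replicate block, 150 with 1 RUVr factor (45 lower) and 305 (191 and 114) with no fold minimum. They ranged from 51 to 152 when a library was left out, 43 to 94 higher and 8 to 58 lower; with fewer libraries in a group the test has less power, and why leaving out empty-vector replicate 3 raised the count was not tested. Differences between backgrounds, 22, became 114 with the replicate block and 47 in DESeq2, and 12 to 33 without single libraries; no other alternative moved these counts by over 1.5 times. The log2 ratio of mean Stat5b levels stayed between 5.41 and 6.29, and that of Stat5a between -0.81 and 0.43, without single libraries. Of 82 named genes, 39 kept direction and call in all alternatives; of 1066 values, 940 did, 64 lost a call, 47 gained one and 15, all of genes that are no DEGs, changed sign. They occurred when libraries were left out, where the log2 fold change ranged from -0.22 to 0.035 for Stat2, -0.81 to 0.39 for Stat5a, -0.017 to 0.29 for Jak3, -0.096 to 0.14 for Tyk2, -0.087 to 0.13 for Socs7, -0.49 to 0.44 for Il9r, -0.084 to 1.22 for Irf8 and -0.037 to 0.19 for Slc3a2. The block changed no call of a named gene beyond those given in the report. Genes below 1 CPM rest on few reads.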
